A study of Mus musculus with 2 samples.

Results

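The RNA described here is the summed content of the smallest droplet barcodes of a pair of mouse liver libraries. Every barcode holding 200 to under 400 UMIs (unique molecular identifiers, each counting 1 captured transcript) was taken, and its counts were added to 1 profile per library. Of 341974 deposited barcodes, 260239 met this rule. The control library gave 116552 of its 166037 barcodes and the GS_KO library 143687 of its 175937. The rule used only the total UMIs of a barcode. These barcodes are called small barcodes below, and the 3537 barcodes of at least 1000 UMIs (1703 control, 1834 GS_KO) large barcodes.

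Each library came from the liver of 1 non-tumor bearing mouse. Both mice were Glul f/f, that is, homozygous for a floxed gene of glutamine synthetase, and were 11 weeks old. The control mouse received AAV8-GFP and the GS-KO mouse AAV8-Cre, and livers were taken 2 weeks later by perfusion with collagenase II at 0.3 mg/mL. Hepatocytes and purified non-parenchymal cells entered a 10x Genomics library labelled 5PrimeV3, and the labels name both single cells and single nuclei. The labels do not give the promoter that drives Cre or the time of day of collection. With 1 mouse per group no test between conditions was possible. Every interval below is an exact 95% interval that covers counting error only, and mouse, digestion and library cannot be told apart from genotype.

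Hepatocytes fill the blood plasma with albumin, transferrin, apolipoproteins and clotting factors, and the messages for these proteins make up much of their cytoplasmic RNA. During inflammation, interleukin-6 and related signals turn up a further set of secreted proteins, the acute phase proteins, among them the serum amyloids and haptoglobin. Glutamine synthetase itself is made by the hepatocytes next to the central vein, which also carry much of the cytochrome P450 machinery for drugs and lipids. A sum over barcodes is a bulk profile: fewer cells of a type and less RNA per cell cannot be told apart in it.

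The small barcodes held 38070357 (control) and 43036904 (GS_KO) UMIs, or 61.8% and 74.2% of all UMIs. The median small barcode had 335 UMIs and 230 genes in the control and 300 UMIs and 202 genes with GS_KO. The quartiles over all barcodes were 264 and 346 UMIs with GS_KO, against 304 and 400 in the control, and the window from 200 to under 400 UMIs took a larger share of the GS_KO library. A total of 8108 barcode sequences occurred in both matrices. Of the small barcodes, 5749 control and 6639 GS_KO barcodes carried such a sequence.

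Glul, the gene targeted by Cre, stood at 113 CPM (counts per 1000000 UMIs of the sum, interval 110.1 to 117) in the control small barcodes. It stood at 9.78 CPM (8.87 to 10.8) in the GS_KO small barcodes, which is 11.6-fold lower. In the large barcodes the levels were 124 and 31.5 CPM. Which part of the gene the counted molecules came from, relative to the floxed part, was not analysed here.

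The 4 transcripts given as markers of these barcodes were all measured. Levels given as a pair are always in the order control, GS_KO. Alb, encoding albumin, stood at 41519 and 42165 CPM, and only 3 and 11 small barcodes held no Alb UMI. Cyp2e1, a pericentral ethanol-oxidizing P450, stood at 10538 and 3670 CPM. Saa1, a serum amyloid, stood at 74.5 and 5017 CPM. Lcn2, encoding the siderophore-binding protein lipocalin-2, stood at 7.59 and 2262 CPM. Alb and Cyp2e1 were thus abundant in both libraries, whereas Saa1 and Lcn2 were abundant in the GS_KO library alone, ranking 24 and 45 there against 1674 and 7196 in the control library, among genes outside the mitochondrial genome.

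The 6 genes with the highest GS_KO to control ratio were Ubd, Lcn2, Saa2, Saa3, Orm2 and Saa1. Their promoters are shown because these 6 genes differed together, and because 3 of them lie in 1 cluster on chromosome 7. The sequences are from RefSeq on GRCm38.p6, the build called mm10, and run 5′ to 3′ from 250 bases before to 50 bases after the annotated start. All 6 genes had an entry among 32851 promoters. Capitals mark matches to the NF-kB consensus, found 1 time in the Ubd window and not in the others, and matches to TTNNGNAA, a short C/EBP-type motif. Both strands were searched.
Ubd, chr17:37193642-37193941, plus strand: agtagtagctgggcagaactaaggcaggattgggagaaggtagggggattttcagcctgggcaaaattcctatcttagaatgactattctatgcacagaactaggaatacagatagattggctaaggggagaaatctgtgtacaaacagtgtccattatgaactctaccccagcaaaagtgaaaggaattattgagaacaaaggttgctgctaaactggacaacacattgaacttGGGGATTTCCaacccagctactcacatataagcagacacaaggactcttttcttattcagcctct
Lcn2, chr2:32387690-32387989, minus strand: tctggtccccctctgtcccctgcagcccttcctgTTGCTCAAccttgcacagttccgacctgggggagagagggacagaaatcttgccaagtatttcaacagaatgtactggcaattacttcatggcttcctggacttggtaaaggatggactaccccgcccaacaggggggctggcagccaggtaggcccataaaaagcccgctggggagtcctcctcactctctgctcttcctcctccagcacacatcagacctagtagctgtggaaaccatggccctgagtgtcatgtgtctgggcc
Saa1, chr7:46742931-46743230, minus strand: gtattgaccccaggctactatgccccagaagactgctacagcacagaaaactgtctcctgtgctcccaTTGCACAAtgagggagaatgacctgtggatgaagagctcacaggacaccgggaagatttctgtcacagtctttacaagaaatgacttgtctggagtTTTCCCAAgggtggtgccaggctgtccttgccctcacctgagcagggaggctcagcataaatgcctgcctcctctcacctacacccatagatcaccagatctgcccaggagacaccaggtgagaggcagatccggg
Saa2, chr7:46751583-46751882, plus strand: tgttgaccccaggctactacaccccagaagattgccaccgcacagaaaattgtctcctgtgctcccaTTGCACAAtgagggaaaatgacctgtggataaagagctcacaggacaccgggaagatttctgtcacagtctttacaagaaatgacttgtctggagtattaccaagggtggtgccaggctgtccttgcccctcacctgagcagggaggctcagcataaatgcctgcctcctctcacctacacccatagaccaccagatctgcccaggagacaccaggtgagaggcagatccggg
Saa3, chr7:46715627-46715926, minus strand: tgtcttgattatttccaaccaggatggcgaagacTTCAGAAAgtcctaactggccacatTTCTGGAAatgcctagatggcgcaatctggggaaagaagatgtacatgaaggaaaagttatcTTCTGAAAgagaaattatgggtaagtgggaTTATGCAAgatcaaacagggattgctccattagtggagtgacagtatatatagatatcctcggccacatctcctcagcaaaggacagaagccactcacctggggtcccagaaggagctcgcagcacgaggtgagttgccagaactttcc
Orm2, chr4:63362199-63362498, plus strand: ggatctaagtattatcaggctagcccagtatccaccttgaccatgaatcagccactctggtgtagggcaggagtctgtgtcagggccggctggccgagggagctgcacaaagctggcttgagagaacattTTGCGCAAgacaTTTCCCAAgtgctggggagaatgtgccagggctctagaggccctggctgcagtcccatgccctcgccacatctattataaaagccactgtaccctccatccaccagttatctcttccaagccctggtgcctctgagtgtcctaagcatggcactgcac
The C/EBP-type letters occurred 4 times in the Saa3 window, 2 times each in the Saa1 and Orm2 windows and 1 time each in the Lcn2 and Saa2 windows. Of all 32851 promoters, 40.7% held them, so their presence in 5 of 6 windows is a description and not a site. The NF-kB consensus occurred in 8.46% of promoters. Another form of it, with A fixed at the 4th base and the next 4 bases free, searched before the full consensus, was found in 20.7% of promoters and in none of these 6. The STAT letters TTCNNNGAA, found in 8.30% of promoters, were in none of the 6 either, which says only that these letters are not in these windows. The Saa1 and Saa2 windows were 96.0% identical. The Saa1 and Saa2 transcripts matched at 94.4% of 606 aligned bases, so UMIs could be counted to the wrong member of the pair, and their split is uncertain. The same holds for Orm1 and Orm2, whose transcripts were 91.0% identical.

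Secreted liver proteins led the profile of both libraries. Leaving aside the mitochondrial genome, the 10 most abundant genes took 15.3% of control and 17.3% of GS_KO UMIs, and the 100 most abundant took 39.1% and 42.8%. Of the 25 most abundant genes of each library, 17 were shared, and of the 100 most abundant, 78. Each UMI marks 1 transcript end, so levels are not divided by transcript length. Transferrin (Trf), the iron carrier of plasma, ranked 2 in the GS_KO library at 31457 CPM and 4 in the control library at 13663 CPM. Apoa2, an apolipoprotein of high-density lipoprotein, went the other way, from 21419.6 CPM in the control down to 12838 CPM. Haptoglobin (Hp), which binds free haemoglobin, ranked 52 at 2041 CPM in the control and 3 at 14485 CPM with GS_KO. Hemopexin (Hpx), which binds free haem, ranked 54 at 1986 CPM and 7 at 11888 CPM. Hp and Hpx therefore moved into the top of the list in the GS_KO library, while albumin, Apoe (10606 and 10912 CPM) and Serpina3k (7148 and 7381 CPM) differed little between the libraries.

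Most other abundant messages differed by less than 2-fold. Transthyretin (Ttr), the thyroxine carrier, stood at 14597 and 11518 CPM, the fibrinogen chain Fgb at 9696 and 13384 CPM, and the vitamin D carrier Gc at 8692 and 11188 CPM. Apoa1, the main protein of high-density lipoprotein, stood at 7881 and 12381 CPM. The protease inhibitor Serpina1b stood at 7179.5 and 8975 CPM, and the broad inhibitor Pzp at 6315 and 10200.2 CPM. Complement C3 stood at 3549 and 6617 CPM, and Mug1, a murine relative of Pzp, at 3982 and 6902 CPM. Of intracellular proteins, carbonic anhydrase 3 (Car3) was 2.52-fold higher in the GS_KO library (4685 and 11807 CPM). The fatty acid carrier Fabp1 was lower (5859 and 3429 CPM). Gm42418, a locus overlapping ribosomal RNA repeats, stood at 12622 and 8692 CPM, and whether it counts a transcript of its own was not tested. The 13 protein-coding genes of the mitochondrial genome together stood at 93180 and 83829 CPM. Of these 13, 11 were lower in the GS_KO library, as were 67.8% of all genes of at least 100 CPM, and none by 2-fold.

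**Figure D1:**
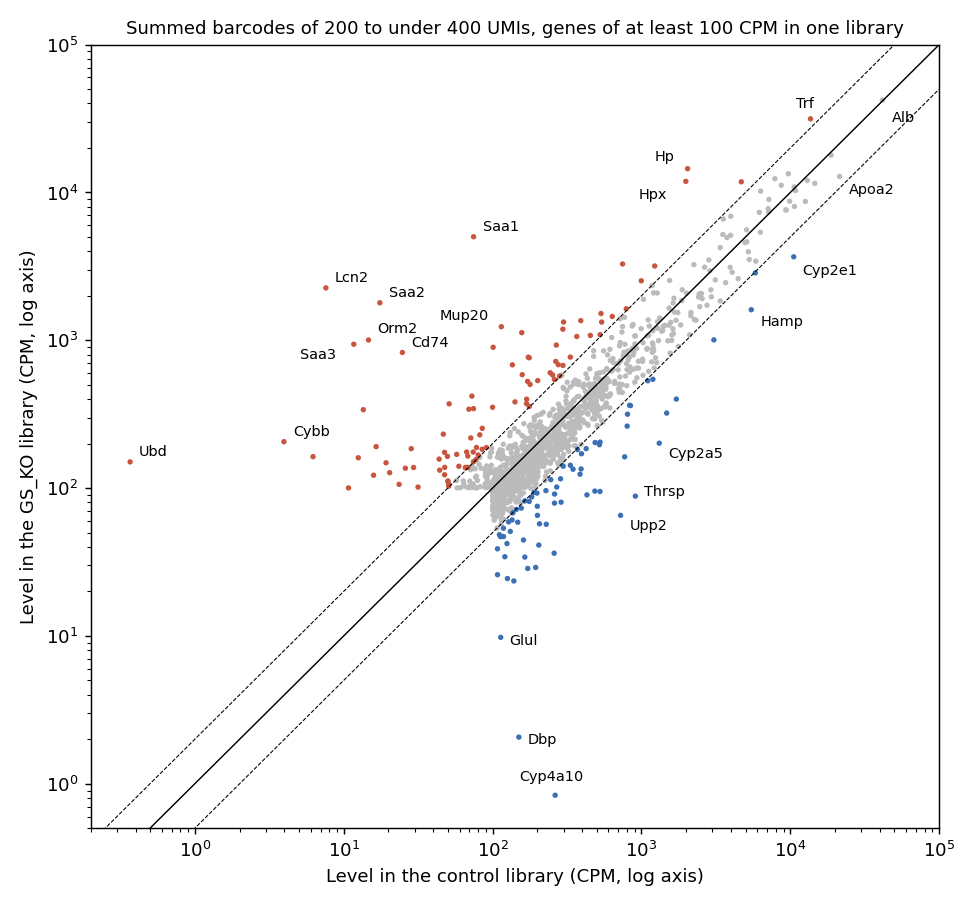
Level of each gene in the summed small barcodes of the control library (x axis, CPM, log axis) and the GS_KO library (y axis, CPM, log axis) for the 1389 genes of at least 100 CPM in either library. The solid line marks equal levels and the dashed lines 2-fold; red points are the 94 genes at least 2-fold higher and blue points the 72 at least 2-fold lower in the GS_KO library. Saa1, Lcn2, Saa2, Saa3, Orm2, Cd74 and Ubd stand far above the line, and Cyp4a10, Dbp and Glul far below it.

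Across the profile, 1389 genes reached 100 CPM in at least 1 library. At least 2-fold higher in the GS_KO library were 94 of them (6.77%), and at least 2-fold lower 72 (5.18%), or 166 in all (12.0%). The median log2 ratio of GS_KO over control over all 1389 genes was -0.20, and 942 of them (67.8%) had a ratio below 1 and 447 (32.2%) above it. These shares are the background for the counts of gene lists that follow, and a list near them is no result about its members. With ratios centred on that median, 113 genes were higher and 55 lower, and the share of higher genes among the calls went from 56.6% to 67.3%. Just past the 2-fold limit lay Tmem256, Brap and Tmem106b (2.01-fold lower each), and just under it Herpud1 (225 and 113 CPM), Ndufa5 (107 and 53.7 CPM) and Nr1i3 (114 and 57.1 CPM). Of the 166 genes, 143 were 2-fold the same way in each of 4 windows of 50 UMIs between 200 and 400, and all 166 had the same sign in the 4 windows.

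Acute phase messages were prominent among the higher genes. Of 28 listed acute phase genes, 25 reached 100 CPM; 16 were at least 2-fold higher and 3 at least 2-fold lower in the GS_KO library, with a median log2 ratio of 1.61 beside -0.20 over all genes. A rare gene reaches 100 CPM only through the library in which it is high, so counts over a list describe the members that passed and no more. Lcn2 was 298-fold higher (265 to 336). Saa2 was 102-fold higher, from 17.5 to 1793 CPM, and Saa3, the serum amyloid also made by macrophages, went from 11.7 to 940.3 CPM. Orm2, an orosomucoid that binds drugs in plasma, stood at 14.7 and 1004 CPM, and its neighbour Orm1 at 747 and 3282 CPM. The pentraxin Apcs stood at 101 and 896 CPM. Ceruloplasmin (Cp), the copper carrier, stood at 1228 and 3181 CPM, and the leucine-rich glycoprotein Lrg1 at 297 and 1189 CPM. The fibrinogen chains Fga, Fgb and Fgg were under 2-fold, with log2 ratios of 0.56, 0.47 and 0.33. The serum amyloid genes Saa3, Saa4, Saa1 and Saa2 lay within chr7:46711998-46754313, and all 4 were past 2-fold.

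The 3 acute phase genes that were lower handle metals. Hamp, encoding the iron hormone hepcidin, stood at 5466 and 1609 CPM, and its rank went from 19 to 65. The metallothioneins Mt1 (1715 and 400.1 CPM) and Mt2 (289 and 80.3 CPM), small zinc-binding proteins encoded side by side on chromosome 8, were lower as well. These genes are commonly raised in acute phase livers, so they stood against the rest of the list. With Trf higher, and the ferritin chains Fth1 and Ftl1 at log2 ratios of 0.30 and -0.50, the 5 measured iron genes shared no direction.

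Of 16 measured complement genes, 6 were at least 2-fold higher, where 6.77% of all genes were, and none 2-fold lower. A ratio above 1 was found for 15 of the 16, against 32.2% of all genes. C6, a subunit of the membrane attack complex, stood at 172 and 527 CPM, C4b at 244 and 603 CPM, C9 at 541 and 1328 CPM, and factor B (Cfb) at 637 and 1450 CPM. The lectin Mbl2, which starts the lectin pathway, was the 1 member below its control level, at 1198 and 887 CPM. Plasma proteins of the steady state lay mostly under 2-fold (22 of 24 measured). So did most genes, since 12.0% of all genes were past 2-fold, and this count is near that share. Their median log2 ratio was 0.15, beside -0.20 over all genes, and the other 2, Hpx and Trf, were higher. Of 13 apolipoproteins, Apoc2 was past 2-fold upward (259.9 and 544 CPM), and Apoc3, an inhibitor of lipoprotein lipase, past 2-fold downward (5817 and 2855 CPM). Of 12 measured genes of protein folding and export in the endoplasmic reticulum, 10 had a ratio above 1 (32.2% of all genes) and none reached 2-fold. The chaperone Hspa5 stood at 631 and 1044 CPM.

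Ubd, encoding the ubiquitin-like protein FAT10 that interferon-gamma and tumour necrosis factor induce, had the highest ratio of all. It had 14 UMIs (0.368 CPM) in the control small barcodes and 6474 UMIs (150.4 CPM) in the GS_KO small barcodes, a 409-fold difference with an interval from 244 to 749. Of 21 listed interferon genes, 7 reached 100 CPM, some of them only through the GS_KO library. Ifi47, an interferon-inducible GTPase, stood at 10.8 and 100.3 CPM, and the transcription factor Irf1 at 23.6 and 106 CPM, and both passed the minimum in that library alone. Of 13 listed MHC class I genes, 5 reached 100 CPM. H2-K1 (368 and 1061 CPM) and H2-D1 (535 and 1518 CPM) present peptides on all nucleated cells, and are near copies of each other, so that their split is uncertain. Within chr17:33996017-35385290, in the MHC region, all 9 genes past 2-fold were higher, beside 56.6% of all genes past 2-fold. The span was set by these 9 genes themselves, and measured genes under 2-fold inside it were not counted. Among the 9, H2-Ab1 and H2-Aa reached 100 CPM through the GS_KO library alone and could only be called higher. The 9 genes are therefore no like comparison to the 56.6%.

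Messages typical of macrophages and other antigen-presenting cells were also higher in the GS_KO small barcodes. The invariant chain Cd74 stood at 24.8 and 827 CPM, and the MHC class II chains H2-Aa and H2-Ab1 at 13.6 and 339 CPM and at 6.23 and 163 CPM. Cybb, the oxidase subunit of phagocytes, stood at 3.97 and 206 CPM, and Mpeg1, the pore protein of macrophages, at 16.5 and 191 CPM. All 10 Kupffer cell markers were higher, where 32.2% of the genes of at least 100 CPM had a ratio above 1. Only 3 of the 10 reached 100 CPM, and no share was computed for genes below it. Sums over the list were 116 and 703 CPM. The defining marker Clec4f stood at 24.98 and 93.8 CPM and C1qb at 19.3 and 148 CPM. Cybb and Mpeg1 did not follow C1qb over barcode size in the GS_KO library. From 300 to under 350 UMIs to 400 to under 500 UMIs, C1qb went from 142 to 768 CPM. Cybb went from 205 to 287 CPM and Mpeg1 from 192 to 240 CPM over the same classes. The cells from which Cybb and Mpeg1 came were not tested. Summed markers of stellate cells (267 and 295 CPM) and of sinusoidal endothelial cells (134 and 176 CPM) differed by less. Cholangiocyte (2.21 and 22.6 CPM), neutrophil (2.68 and 20.2 CPM), T and NK cell (1.34 and 8.95 CPM) and B and plasma cell sums (2.55 and 14.1 CPM) were low in both libraries. Among cholangiocyte markers Sox9 carried nearly all of the sum (1.71 and 21.4 CPM), and Krt19 and Krt7 were at or near 0. The part of non-hepatocyte RNA in the acute phase and interferon ratios was not tested.

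**Figure D2:**
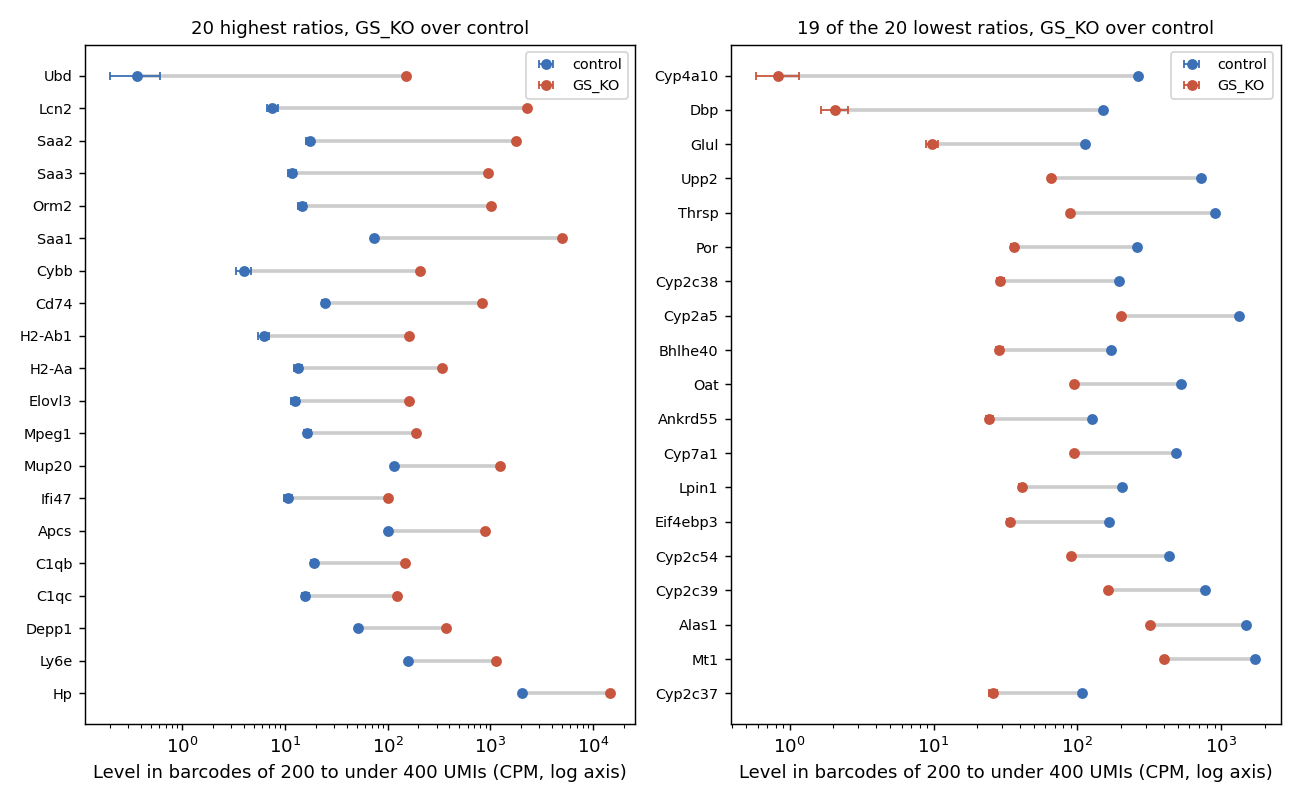
Level in the summed small barcodes (x axis, CPM, log axis) of the 20 genes with the highest and 19 of the 20 with the lowest GS_KO to control ratio; blue points are the control library, red points the GS_KO library, and bars are exact 95% counting intervals, visible only for the rarest messages. Control levels of the left set mostly lie under 120 CPM, and GS_KO levels of Saa1 and Hp are 5017 and 14485 CPM; in the right set Cyp4a10 and Dbp lie at 0.836 and 2.07 CPM in the GS_KO library.

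A few further genes completed the 20 highest ratios. Elovl3, an elongase of very long fatty acids with a circadian, male-biased pattern in mouse liver, stood at 12.5 and 160.4 CPM. Mup20, the male urinary pheromone darcin, stood at 115 and 1235 CPM, while 8 of 10 measured major urinary protein genes had a ratio below 1, beside 67.8% of all genes, and Mup16, Mup17 and Mup9 were at least 2-fold lower. Mup genes are near copies of each other, so these splits are uncertain. Depp1, induced by FOXO factors, stood at 51.1 and 372 CPM, and Ly6e, an interferon-inducible surface protein, at 157 and 1126 CPM.

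Cyp4a10, a fatty acid omega-hydroxylase and a standard target of the receptor PPAR-alpha, had the lowest ratio. Its control level was 263 CPM (258 to 268) and its GS_KO level 0.836 CPM (0.586 to 1.16). Of 17 measured fatty acid oxidation genes it alone was past 2-fold, and 15 had a ratio below 1 (67.8% of all genes), with a median log2 ratio of -0.62 (-0.20 over all genes). The carnitine palmitoyltransferase Cpt1a stood at 162 and 107 CPM. Thrsp, a lipogenic thyroid-responsive protein, stood at 910.1 and 88.3 CPM, and the phosphatidate phosphatase Lpin1 at 204 and 41.2 CPM. Scd1, the stearoyl-CoA desaturase, went the other way, at 391 and 1358 CPM. Of 7 measured genes of the lipogenesis list, 2 were at least 2-fold higher and 1 at least 2-fold lower. A ratio above 1 was found for 5 of the 7, beside 32.2% of all genes. Of 8 measured cholesterol synthesis genes, 3 were at least 2-fold higher and none 2-fold lower, beside 6.77% and 5.18% of all genes. The 3 were led by Hmgcs1 at 141 and 383 CPM.

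Of 31 measured cytochrome P450 genes, 11 were at least 2-fold lower and 1, the sterol hydroxylase Cyp8b1, at least 2-fold higher, beside 5.18% and 6.77% of all genes, and their median log2 ratio was -0.34. Within chr19:39389556-40113950 lay 6 lower genes of the Cyp2c family, which oxidizes drugs and arachidonic acid. Cyp2c39 stood at 771 and 163 CPM, Cyp2c54 at 430.4 and 90.0 CPM, Cyp2c38 at 195 and 29.1 CPM and Cyp2c37 at 108 and 25.95 CPM. Cyp2c50 (527 and 205 CPM) and Cyp2c68 (286 and 116 CPM) were lower by less. The family did not move as one, since Cyp2c29 (3382 and 1847 CPM) and Cyp2c70 (1026 and 963 CPM) were under 2-fold. Transcripts of Cyp2c37 and Cyp2c54 were 94.8% identical and those of Cyp2c38 and Cyp2c39 93.8% identical, so the split among them is uncertain. Cyp3a11, the main xenobiotic-inducible P450 of mouse liver, stood at 3971 and 5129 CPM.

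Of 13 measured pericentral genes, 5 were at least 2-fold lower, beside 5.18% of all genes, and none 2-fold higher. Their median log2 ratio was -0.87, and 11 were below their control level, where 67.8% of all genes were. The 5 were Glul, Cyp2e1, the ornithine aminotransferase Oat (527 and 94.9 CPM), the coumarin hydroxylase Cyp2a5 (1317 and 201 CPM) and Cyp7a1. Glul is the gene targeted by Cre, so its place in this count was set by the design. Cyp1a2, also pericentral, was under 2-fold at 506 and 361 CPM, and Gstm1 stood at 1434 and 1261 CPM. Periportal genes had a median log2 ratio of -0.25, near that of all genes, with 1 of 17 past 2-fold in each direction. These were Hsd17b6, a steroid dehydrogenase (50.9 and 106 CPM), and Pck1, the enzyme of gluconeogenesis (3064 and 1007 CPM). All 7 measured urea cycle genes were below their control level, where 67.8% of all genes were, with a median log2 ratio of -0.35 beside -0.20 over all genes. The mitochondrial aspartate-glutamate carrier Slc25a13 (198.8 and 92.6 CPM) was the 1 past 2-fold. All 14 measured genes of glutamine and glutamate metabolism had a ratio below 1 too, beside 67.8% of all genes (median log2 ratio -0.53). Past 2-fold were 3 of them, beside 5.18% of all genes: Glul, Oat and the tyrosine aminotransferase Tat (806 and 316 CPM). Glul, the targeted gene, and Oat were already counted among the pericentral genes, so the 2 counts are not separate. The glutaminase of liver, Gls2, stood at 112 and 96.2 CPM.

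Other genes of the lowest 20 belong to haem, bile acid and nucleoside metabolism. Alas1, the rate-limiting enzyme of haem synthesis, stood at 1477 and 322 CPM, and Por, which passes electrons to the P450 enzymes, at 259 and 36.3 CPM. Cyp7a1, which limits the rate at which cholesterol becomes bile acid, stood at 487 and 95.4 CPM, while Nr0b2, the repressor SHP that acts on Cyp7a1, was higher (29.5 and 138 CPM). The uridine phosphorylase Upp2 stood at 724 and 65.4 CPM. Eif4ebp3 (165 and 34.2 CPM), a repressor of translation initiation, and Ankrd55 (126 and 24.4 CPM) were lower too, as was the clock-linked repressor Bhlhe40 (172 and 28.6 CPM).

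Clock genes stood far apart. Dbp, a transcription factor whose message peaks in the day in mouse liver, stood at 150.2 and 2.07 CPM. It was the only member of 12 day-phase genes to reach 100 CPM. The other 11 were all below their control level, as were 67.8% of the genes of at least 100 CPM. Among the 11 were Usp2 (89.7 and 1.30 CPM), Tef (80.3 and 9.41 CPM) and Per3 (33.6 and 0.860 CPM). Of 6 night-phase genes, all under 100 CPM, most were higher, with Arntl, encoding BMAL1, at 0.709 and 24.8 CPM and Npas2 at 0.105 and 4.46 CPM. The time at which each liver was taken is not given in the labels, and it cannot be told apart from genotype. Female-biased liver genes were rare in both libraries, but Acot3 (60.5 and 0.139 CPM), Cyp2b9 (58.0 and 7.55 CPM) and Cux2 (23.1 and 0.186 CPM) were lower in the GS_KO library.

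Housekeeping sets differed by small amounts. All 71 measured nuclear genes of the respiratory chain were below their control level and none by 2-fold, with a median log2 ratio of -0.51, where 67.8% of all genes were below it with a median of -0.20. Cox4i1 stood at 1194 and 863 CPM and Cox7c at 393 and 198 CPM. Of 78 measured ribosomal protein genes 65 were below their control level, beside 67.8% of all genes, with a median of -0.23 that lay close to that of all genes. Of 6 measured chaperones of the heat shock set, 5 were lower, beside 67.8% of all genes, and Hspa8 stood at 539.9 and 287 CPM.

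Hepatocyte messages were spread more evenly over the small barcodes than messages of several other cells. For each gene a dispersion index was computed, which is 1 when UMIs fall on barcodes in proportion to barcode depth alone. In the control and GS_KO libraries it was 1.09 and 1.13 for Alb, 1.03 and 1.02 for Cyp2e1, 1.01 and 1.02 for Saa1, and 0.989 and 1.01 for Lcn2. In the GS_KO library 51.2% of small barcodes carried no Lcn2 UMI, and no barcode carried more than 7. Acute phase RNA was thus spread evenly over the barcodes of that library. Cybb (1.06 and 1.01) and Ubd (0.960 and 1.01) also had an index near 1. They were rare, at 0.0617 and 0.0451 UMIs per GS_KO small barcode against 12.6 for Alb, and the index shows uneven spread less readily in rare messages. Rarity alone did not set the index, however. In the same barcodes C1qb (0.0444 UMIs per barcode) and Clec4f (0.0281) had an index of 1.43 and 1.255, and Rsrp1 (0.0273) of 1.005. Why Cybb was spread more evenly than C1qb was not tested. In the control library Ubd had 14 UMIs and Lcn2 289, with at most 1 in any barcode, so their control indices say little about spread. Cd74 was not spread evenly, with an index of 1.90 and 1.97 and up to 19 UMIs in 1 barcode, and H2-Aa reached 2.19 in the GS_KO library. Haemoglobin Hbb-bs (4.84 and 5.38), the plasma cell gene Jchain (12.6 and 3.39) and the neutrophil gene S100a9 (2.76 and 5.71) were the most concentrated of the genes examined. Their control indices rest on few counts: 132 UMIs for Hbb-bs, 54 for S100a9 and 65 for Jchain, of which 35 lay in 2 barcodes. The mitochondrial message mt-Co1 had an index of 1.59 and 1.40.

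The label of cytoplasmic liver RNA was set against nuclear and mitochondrial messages. The median share of mitochondrial UMIs was 8.90% and 8.09% in small barcodes of the control and GS_KO library, against 3.18% and 2.15% in large barcodes. The nuclear RNA Malat1 stood at 1709 and 1365 CPM in small barcodes, against 19613 and 37630.1 CPM in large ones. The index of Malat1 was 1.29 (control) and 2.40 (GS_KO), so some GS_KO small barcodes were rich in it. In the GS_KO library Malat1 went from 1254 CPM at 300 to under 350 UMIs to 2069 CPM at 350 to under 400 UMIs, and then to 6075 CPM at 400 to under 500 UMIs. Cd74 went from 783 to 1167 and 2949.8 CPM over the same windows. In the control library Malat1 stood at 1677, 1691 and 2212 CPM. The upper edge of the window therefore took in barcodes of another make-up in the GS_KO library, while Alb (41151 CPM within 350 to under 400 UMIs, 35011 CPM within 400 to under 500 UMIs) changed little up to that edge. Whether a small barcode held a cell, part of one or RNA free in the suspension was not tested.

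**Figure D3:**
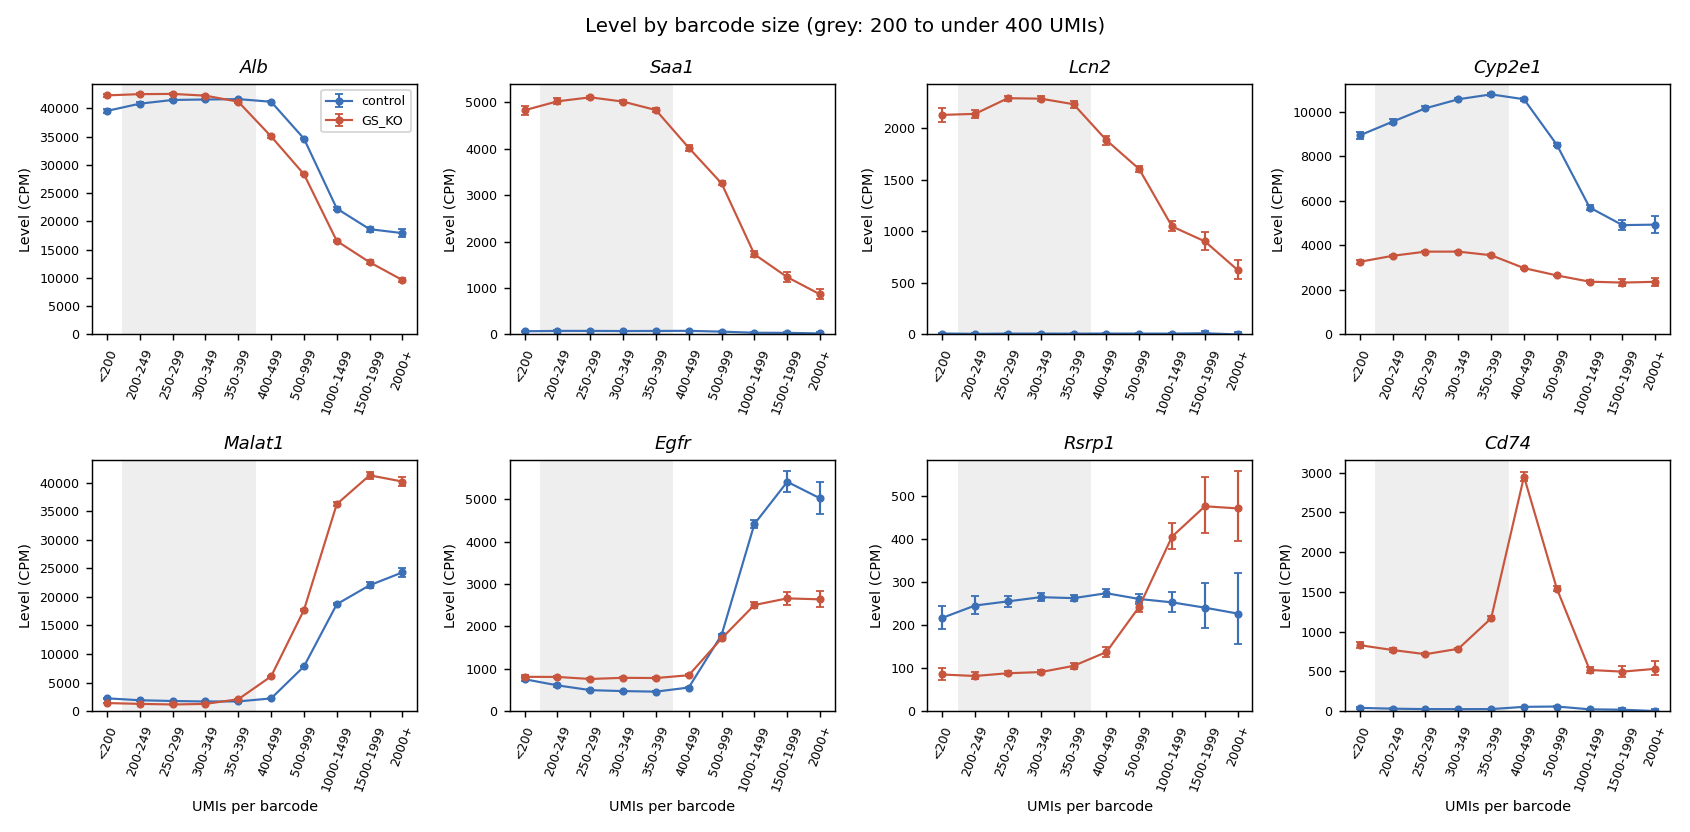
Level (y axis, CPM, from 0) of 8 genes in barcodes grouped by their UMIs (x axis, 10 size classes), with the control library in blue, the GS_KO library in red, exact 95% counting intervals as bars and the range from 200 to under 400 UMIs in grey. Alb, Saa1 and Lcn2 are nearly flat within the grey range and lower in larger barcodes, Malat1 is higher in larger barcodes, Egfr and Rsrp1 cross over between the libraries, and Cd74 peaks at 400 to under 500 UMIs in the GS_KO library.

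Most library differences of the small barcodes were found again in the large ones, which share mouse and library with them and are no replicate. All 94 higher genes had a ratio above 1 in large barcodes and 72 of them reached 2-fold there. Of the 72 lower genes, 67 had a ratio below 1 and 41 reached 2-fold. In large barcodes, 121 of the 1389 genes (8.71%) were at least 2-fold higher and 119 (8.57%) at least 2-fold lower. Over the 1389 genes the log2 ratios of small and large barcodes had a Pearson correlation of 0.86 and a Spearman correlation of 0.72, as a description across genes. For 64 of the 94 higher and 50 of the 72 lower genes the log2 ratio was farther from 0 in small barcodes. These genes were chosen by their ratio in small barcodes, which favours this outcome. In the other direction, 49 genes were at least 2-fold higher and 78 at least 2-fold lower in large barcodes but under 2-fold in small ones. Lcn2 (log2 ratios of 8.22 in small and 6.92 in large barcodes), Glul (-3.53 and -1.97) and Cyp2c37 (-2.06 and -0.83) differed more in small barcodes. Alas1 (-2.20 and -3.61) and Lpin1 (-2.31 and -3.50) differed more in large barcodes.

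Few genes went in opposite directions. At 1.5-fold or more in both sizes, 1 gene was higher in small and lower in large barcodes (0.072% of 1389), and 3 were lower in small and higher in large barcodes (0.216%). By sign alone, 117 (8.42%) and 139 (10.0%) genes did so, but their median absolute log2 ratio was 0.19 in small and 0.20 in large barcodes. With both counting intervals apart from 0, a rule added after the data were seen, the counts were 40 (2.88%) and 74 (5.33%).

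Egfr, the receptor for epidermal growth factor, was the gene higher in small and lower in large barcodes. In small barcodes it stood at 478 and 778 CPM, a log2 ratio of 0.70 (0.68 to 0.73). In large barcodes it stood at 4620.4 and 2549.7 CPM, a log2 ratio of -0.86 (-0.90 to -0.81). It was thus far more abundant in large barcodes of both libraries, and the library order turned in the class of 500 to under 1000 UMIs. The gene lies at chr11:16752203-16918158 and spans 166 kb. Over barcodes of 200 to under 300 UMIs alone, Egfr missed the 1.5-fold limit.

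Rsrp1, an arginine- and serine-rich protein, had the largest gap the other way. It stood at 261 and 91.2 CPM in small barcodes, a log2 ratio of -1.52 (-1.57 to -1.46), and at 248.8 and 426 CPM in large barcodes, a log2 ratio of 0.77 (0.62 to 0.93). Its control level was nearly the same in both sizes, and its GS_KO level was not. Lima1, an actin-bundling protein, stood at 109 and 69.5 CPM in small and at 141 and 221 CPM in large barcodes. Id2, an inhibitor of helix-loop-helix factors, stood at 326 and 209.7 CPM and at 230.04 and 359.7 CPM. With ratios centred on the median of all genes, which shifts them by 0.20 in small and 0.26 in large barcodes, Rsrp1 remained in this set, Lima1 and Id2 left it, and Phlda1 and Sult2a8 entered it. Phlda1 had log2 ratios of -1.27 and 0.36, and the sulfotransferase Sult2a8 of -0.86 and 0.48.

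Of the weaker reversals with intervals apart from 0, those with a large gap include the following. Sult1d1, a sulfotransferase for catechols, stood at 269 and 312 CPM in small and at 237 and 115 CPM in large barcodes. Khk, the fructokinase, stood at 243 and 319.8 CPM and at 263 and 154 CPM. The flavin monooxygenase Fmo1, the cytokine receptor chain Il31ra and the actin-capping subunit Capzb had log2 ratios of 0.85, 0.14 and 0.26 in small and of -0.16, -0.84 and -0.67 in large barcodes. On the other side, the hepatic lipase Lipc stood at 179.5 and 154 CPM in small and at 176 and 600.4 CPM in large barcodes. Gch1, which starts biopterin synthesis, stood at 140.2 and 98.7 CPM and at 88.9 and 184 CPM. Gclc, a subunit of the ligase that starts glutathione synthesis, was at 193 and 177 CPM and at 195 and 445 CPM. Ttpa, the vitamin E transfer protein, had log2 ratios of -1.03 and 0.28. Malat1 was in this set as well (-0.32 and 0.94), but in the window from 350 to under 400 UMIs its ratio was 0.29.

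**Figure D4:**
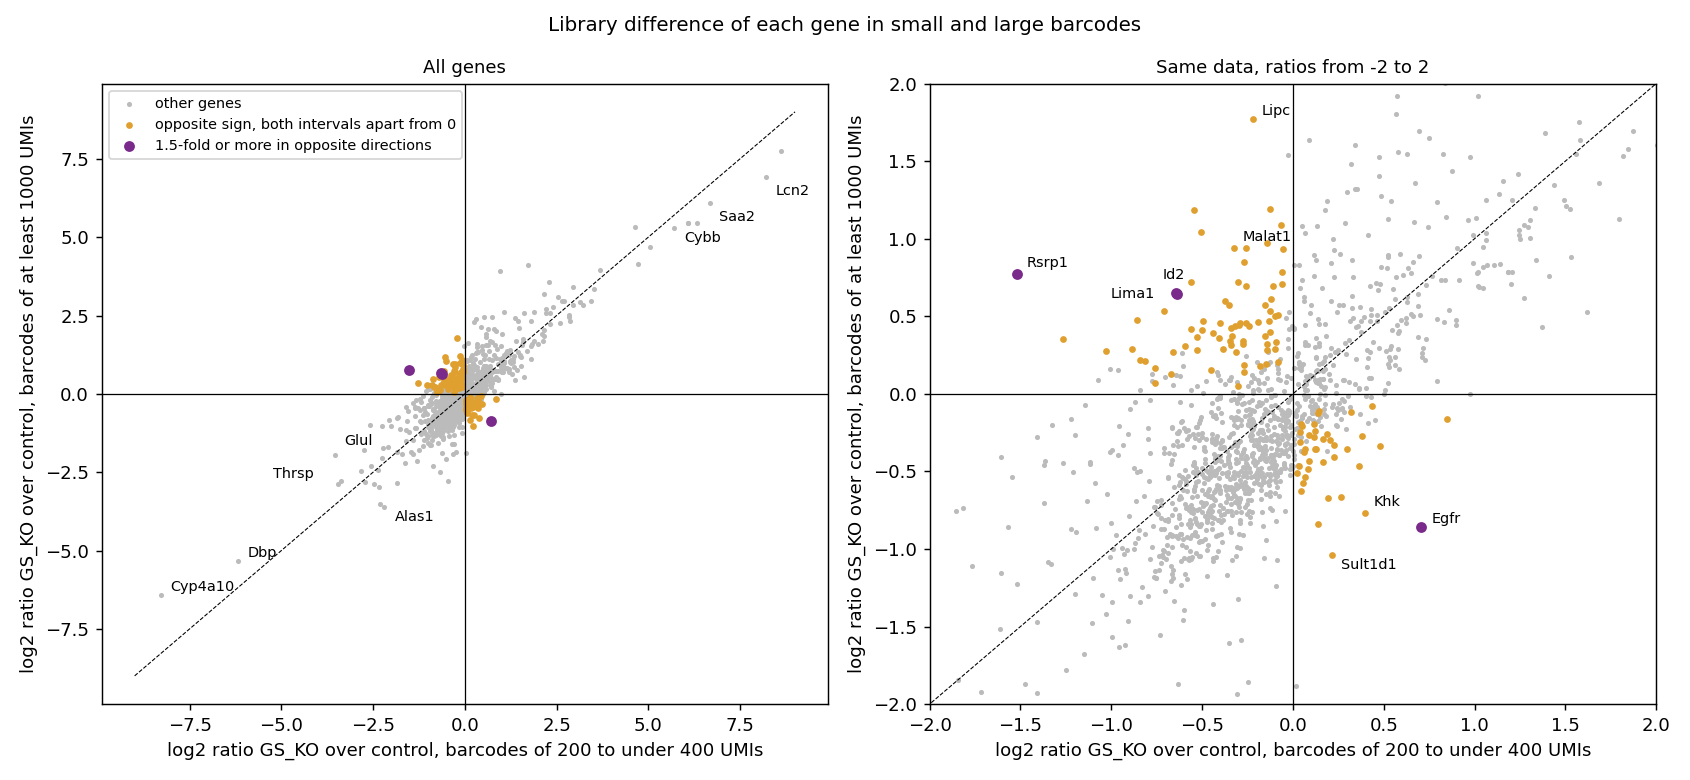
log2 ratio of GS_KO over control for 1389 genes in small barcodes (x axis) and large barcodes (y axis), over the full range on the left and from -2 to 2 on the right; the dashed line marks equal ratios. Most genes lie near the dashed line; orange points are the 114 genes of opposite sign with both intervals apart from 0, and purple points are Egfr, Rsrp1, Lima1 and Id2.

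Some genes kept their sign or stayed near 0 in small barcodes but differed in large ones. The immediate early genes Jun (109 and 107 CPM in small barcodes) and Ier2 (112 and 119.5 CPM) had log2 ratios of -0.03 and 0.09 in small and of 1.54 and 1.64 in large barcodes. None of the 5 measured immediate early genes reached 2-fold in small barcodes, and their median log2 ratio was 0.09, against 1.30 in large barcodes. The bile salt pump Abcb11 (0.30 and 2.38) and the histidase Hal (0.44 and 2.14) were likewise nearer to 0 in small barcodes. Cps1, the entry enzyme of the urea cycle, had a log2 ratio of -0.29 in small and -1.59 in large barcodes, and the glutathione transferase Gsta3 of -0.51 and -2.07. Pck1 was the reverse case, at -1.61 and -0.41.

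The longer a gene, the lower its level tended to be in small relative to large barcodes. The log2 ratio of the small to the large level had a Spearman correlation with gene length of -0.69 (control) and -0.64 (GS_KO) over 1389 genes, which share library, depth and annotation. Over the 348 shortest genes (0.204 to 5.98 kb) its median was 1.14 (control) and 1.39 (GS_KO), and over the 347 longest genes (37.8 to 2271 kb) it was -0.27 and -0.52. Over the genes between, the median was 0.97 and 1.12 from 5.99 to 15.5 kb and 0.67 and 0.57 from 15.6 to 37.6 kb. Only the longest part thus had a median below 0. Immp2l, spanning 931 kb, stood at 116 and 111 CPM in small barcodes against 3575 and 3107 CPM in large ones. Dpyd, which breaks down pyrimidines, stood at 574 and 355 CPM against 6367 and 3358 CPM. Short messages such as the proteasome subunit Psmb6 (150.2 and 139.8 CPM against 58.2 and 44.2 CPM) lay on the other side. The share of genes of opposite sign between small and large barcodes was 12.9% over the shortest and 28.2% over the longest genes. Malat1, at 6.98 kb, departed from the trend.

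**Figure D5:**
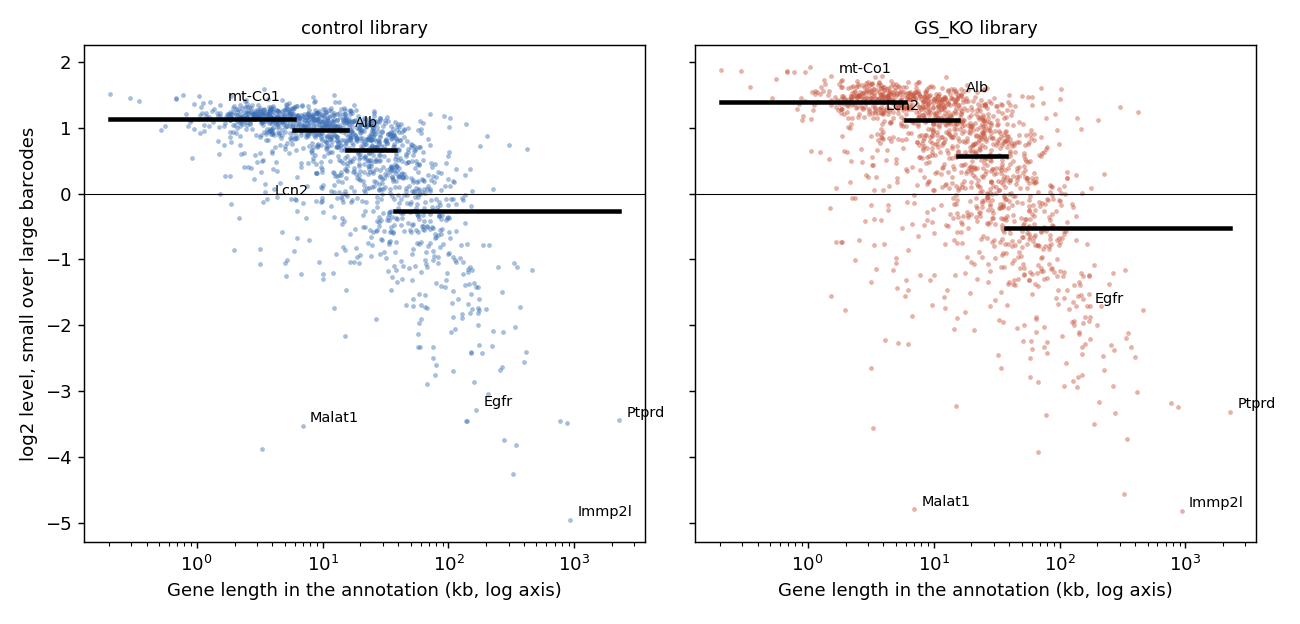
log2 ratio of the level in small over large barcodes (y axis) against the length of the gene in the annotation (x axis, kb, log axis) for 1389 genes, control library on the left and GS_KO library on the right; black bars are the medians of 4 equal parts of the genes by length. The bars run from 1.14 down to -0.27 (control) and from 1.39 down to -0.52 (GS_KO), and Malat1 lies far below genes of its length.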

How the data were processed

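The authors deposited 1 matrix of raw UMI counts per library (32285 genes, whole numbers, no normalization), made, per the file headers, with Cell Ranger 8.0.0, and on mm10 per the submitters' processing notes. The rule by which barcodes entered the matrices is not stated, and the smallest held 119 UMIs. Counts of barcodes with 200 to under 400 UMIs, and of those with at least 1000, were summed per library and scaled to CPM. No filter on mitochondrial share and no doublet caller was applied. Ratios are log2 of GS_KO over control with 0.5 counts added to each sum. A gene was compared when it reached 100 CPM in 1 library of the small barcodes, and called at 2-fold, or at 1.5-fold for opposite directions with at least 20 UMIs in large barcodes. Levels carry exact Poisson intervals and ratios the matching conditional intervals. Only the ratios and their intervals were tested on simulated data, which were Poisson counts without further spread. PCR duplicates were collapsed by UMI, and intervals cover counting error only. No p-value is given because 1 mouse was sampled per group.

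Named genes were the 25 most abundant, the 20 highest and 20 lowest ratios, up to 15 of each opposite set with the largest gap, Glul, and members of 44 gene lists. A few genes that this rule names are not reported here. Genes whose ratio differed in size between small and large barcodes, such as Jun, Abcb11 and Pck1, genes named with gene length and genes of the dispersion index were picked after their values were seen. The members and lists were chosen with earlier results of these data known. Alternatives were other UMI windows, scalings, CPM minimums, fold limits, additions and sizes of large barcode, and leaving out barcode sequences found in both matrices. Gene lengths are from GENCODE M21 on mm10, with all 1389 genes matched, and promoters from RefSeq. Computation used scipy 1.17.1, numpy 2.4.6, matplotlib 3.10.9 and pandas 2.3.3 under Python 3.11.15.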

Additional observations from a re-analysis of the deposited data

How the results depend on the processing

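The counts of genes at least 2-fold higher (94) and lower (72) in the GS_KO small barcodes stayed within 1.5 times under 6 other settings: windows of 200 to under 300 or 300 to under 400 UMIs, totals without mitochondrial genes, centring on the median ratio, 5 CPM added, and barcodes found in both matrices left out. They also did in the barcodes between the quartiles of each library, chosen after seeing the data (91 and 70). They moved to 443 and 263 at a minimum of 10 CPM, to 57 and 43 at 200 CPM, and to 150 and 243 at a limit of 1.5-fold, where more or fewer genes can pass by construction. Of the 166 genes past 2-fold, 160 or more were shared in both windows and between the quartiles, and 149 with median centring.

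The opposite sets depended on their limits. The set higher in small barcodes (1 gene) held 0 genes with 200 to under 300 UMIs, 3 at a minimum of 10 CPM (Acacb, Egfr and Ptpn1), 117 by sign only, 0 at 2-fold, 0 when large barcodes began at 500 UMIs, 2 when they began at 2000 UMIs (Egfr and Qprt), and 40 by sign with both counting intervals apart from 0. The set lower in small barcodes (3 genes) held 30 at 10 CPM, 139 by sign only, 0 at 2-fold, 0 from 500 UMIs, 8 from 2000 UMIs, and 74 by intervals. The cause was not tested. No paired analysis was possible because each group is 1 library. The rarest levels rest on few counts, 14 UMIs for Ubd in the control library, and with 5 CPM added its log2 ratio moved by 3.77.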
